A study of Mus musculus with 8 samples.

Results

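The expression of 32 nuclear receptor genes was examined in whole mouse liver after deletion of Ctcf, out of 52636 genes listed in the deposited tables. The 32 genes were taken by symbol from the nuclear receptor family and not by a cutoff on measured values. Earlier results of these data were known when they were chosen. The set leaves out Pparg, Nr0b2, Nr1d1, Nr1d2, Hnf4a and Nr5a2. The Cre-positive libraries came from livers of C57BL/6 mice aged 8 weeks in which both Ctcf alleles were floxed and Cre was driven by the albumin promoter (CTCF fl/fl Albcre+, here cKO, n = 4). The libraries they were set against came from mice of the same strain and age with the same floxed alleles and no Cre (CTCF fl/fl Albcre-, here WT, n = 4). CTCF, a DNA-binding zinc finger protein, helps to fold chromatin into loops and domains, and albumin-Cre recombines in hepatocytes, so other cells of the liver kept the floxed gene. A Cre-positive library with unfloxed Ctcf was not among the 8, so effects of the recombinase and of Ctcf loss cannot be told apart. Whether every sample was a different mouse is not stated in the labels, so p-values reflect only how far these samples spread. Because bulk tissue was sequenced, fewer cells of a type and less RNA per cell cannot be told apart.

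Nuclear receptors are transcription factors with a DNA-binding domain of zinc fingers and a pocket that in many members binds a lipid-soluble ligand. Several of the receptors that dominate in liver, among them CAR, PXR, FXR, the LXRs and PPARα, bind DNA as heterodimers with an RXR, and the steroid receptors bind as homodimers. In liver they tie bile acids, oxysterols, fatty acids, retinoids, thyroid hormone, glucocorticoids and foreign chemicals to the transcription of metabolic enzymes and transporters. The half-site AGGTCA, single or repeated, is the DNA word that most receptors outside the steroid group recognise.

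Totals of assigned counts were 50.3 to 57.3 M in the cKO libraries and 43.9 to 50.4 M in the WT libraries (52.4 ± 3.29 M and 46.1 ± 2.93 M, mean ± SD, n = 4 each). A level of up to 0.0524 to 0.0597 CPM (counts scaled to library size) in a cKO library, and of up to 0.0596 to 0.0683 CPM in a WT library, is allowed by a count of 0, taken as 3 counts of the total and covering counting error only. The targeted gene Ctcf had 12.0, 13.1, 12.7 and 10.9 CPM in cKO replicates 1 to 4, against 16.8, 16.9, 16.3 and 16.0 CPM in WT replicates 1 to 4. This was a log2 change of -0.44 (SE 0.08) with an edgeR adjusted p of 0.00177. TPM is transcript abundance scaled for gene length and depth, without the further scaling factors between libraries that were used for CPM. In TPM Ctcf overlapped between the genotypes, with 5.06 ± 0.36 in cKO and 5.73 ± 0.33 in WT. Of 15562 genes with enough counts to test, 4689 (30.1%) passed an edgeR adjusted p of 0.05, 2367 (15.2%) higher and 2322 (14.9%) lower in cKO, and 30.6% had no overlap between the genotypes in CPM. Markers of 7 cell types were followed beside the receptors. Hepatocyte markers summed to 68016 to 78398 TPM in cKO and 56617 to 75923 TPM in WT (1 of 10 higher, 5 lower), whereas 11 of 12 stellate cell markers were higher and 0 lower, with sums of 334 to 450.3 TPM in cKO and 202 to 217 TPM in WT. For those 12 the count of lower genes was also 0 at an unadjusted p under 0.05, in DESeq2 and in limma-voom. The sums of the other lists were 30.5 to 36.2 TPM in cKO and 17.5 to 30.6 TPM in WT for portal fibroblasts and smooth muscle, 108 to 168 TPM in cKO and 65.0 to 136 TPM in WT for sinusoidal endothelium, and 186 to 293 TPM in cKO and 188 to 287 TPM in WT for Kupffer cells and macrophages. They were 10.4 to 12.2 TPM in cKO and 7.91 to 11.7 TPM in WT for cholangiocytes, and 6.02 to 10.9 TPM in cKO and 3.22 to 6.55 TPM in WT for T, NK and B cells. Of the tested genes of these 5 lists, 4 of 9, 0 of 10, 2 of 10, 3 of 6 and 4 of 9 were higher and 0 were lower in edgeR; for endothelium 1 was higher at an unadjusted p under 0.05, in DESeq2 and in limma-voom, and no list had a lower gene in DESeq2 or limma-voom. At an unadjusted p under 0.05 a lower gene was seen in 1 list, that of cholangiocytes. Cnn1, Cftr and Tff2 were at 0 in at least 1 library, and no marker was at 0 in all of them.

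Of the 32 receptors, 28 passed the filter on low counts and 8 of these (28.6%) passed the threshold, against the 30.1% of all genes. The receptors that rose were Rarg and Nr3c1 (2 of 28, 7.14%, against 15.2% of all genes). Those that fell were Nr1i3, Nr1h4, Nr1h2, Thra, Nr6a1 and Esrrg (6 of 28, 21.4%, against 14.9% of all genes). Of these, Esrrg passed the count filter through its WT libraries. The share that passed was close to that of all genes. The median log2 change of the 28 was -0.13, beside -0.01 over all tested genes, with 12 above 0 and 16 below. The genotypes did not overlap in CPM for 4 of the 28 (14.3%, against 30.6% of all genes), namely Nr1i3, Nr1h4, Rarg and Esrrg. Only Esrrg, a receptor near the limit of detection in cKO, had a change of at least 2-fold among the 8. The 4 receptors that were not tested were Nr4a3, Hnf4g, Vdr and Pgr.

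**Figure D1:**
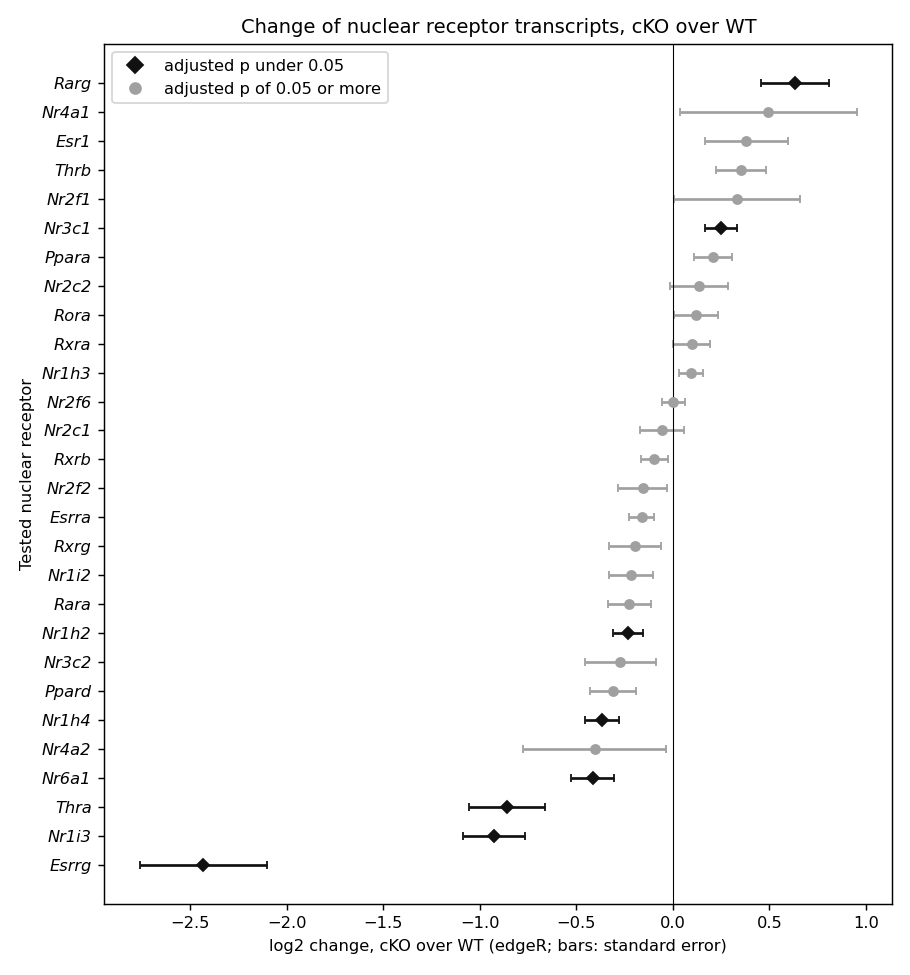
The log2 change of each of the 28 tested nuclear receptors is plotted, cKO over WT, with bars for the standard error; black diamonds mark the 8 with an edgeR adjusted p under 0.05. Esrrg (-2.43), Nr1i3 (-0.93) and Thra (-0.86) stand farthest below 0, and Rarg (0.63) stands farthest above it.

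Promoter sequences show annotated transcript starts of the receptors that changed and which receptor or CTCF letters lie there. Which starts these livers used was not measured. RefSeq's table for GRCm38.p6, the assembly called mm10, held 44 promoter windows of 300 bases (250 before to 50 after a transcript start) for 29 of the 32 genes, with no entry for Thra, Nr3c1 and Hnf4g. Each window was searched on both strands for the half-site AGGTCA and for the CTCF core letters, CCA, AG and GGC in that order with 2 free bases between each, and no window of the 44 held both. The half-site was found in 7 of the 44 windows (15.9%), beside 16.3% of all 32851 windows in the table, and the CTCF core letters in 2 of the 44 (4.55%, Ppara and Nr4a1), beside 2.43% of all. Windows of Nr1i3, Nr1h4, Nr6a1 and Rarg, which passed the threshold in the counts, are shown, and that of Ppara because its TPM and its counts parted. For Nr6a1 and Rarg the window with a match was chosen, and the other window of each held neither set of letters. The windows shown for Nr1h4 and Nr6a1 lie at starts inside their genes, whose outer 5′ ends are at 89533645 and 38926461. Nr1h2 with 1 window and Esrrg with 4, which also passed, held neither and are not shown. Capitals mark the matches, written 5′ to 3′ in the direction of the gene.
Nr1i3, chr1:171213720-171214019, plus strand: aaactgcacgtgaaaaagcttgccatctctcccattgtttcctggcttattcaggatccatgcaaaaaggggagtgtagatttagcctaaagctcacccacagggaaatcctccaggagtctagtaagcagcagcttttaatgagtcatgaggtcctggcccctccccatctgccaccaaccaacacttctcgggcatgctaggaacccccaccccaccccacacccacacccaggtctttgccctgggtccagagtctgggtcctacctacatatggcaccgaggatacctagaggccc
Nr1h4, chr10:89506609-89506908, minus strand: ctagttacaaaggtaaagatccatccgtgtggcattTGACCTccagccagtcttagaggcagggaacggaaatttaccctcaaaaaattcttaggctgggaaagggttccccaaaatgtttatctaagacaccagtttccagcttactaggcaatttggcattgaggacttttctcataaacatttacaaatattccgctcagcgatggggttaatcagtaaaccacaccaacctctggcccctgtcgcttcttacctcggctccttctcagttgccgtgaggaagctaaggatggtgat
Nr6a1, chr2:38784466-38784765, minus strand: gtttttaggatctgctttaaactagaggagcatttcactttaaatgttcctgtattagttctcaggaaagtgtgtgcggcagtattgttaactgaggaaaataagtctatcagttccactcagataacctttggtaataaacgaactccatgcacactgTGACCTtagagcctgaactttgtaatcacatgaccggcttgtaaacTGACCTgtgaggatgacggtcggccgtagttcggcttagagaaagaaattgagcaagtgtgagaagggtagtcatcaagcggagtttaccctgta
Rarg, chr15:102257473-102257772, minus strand: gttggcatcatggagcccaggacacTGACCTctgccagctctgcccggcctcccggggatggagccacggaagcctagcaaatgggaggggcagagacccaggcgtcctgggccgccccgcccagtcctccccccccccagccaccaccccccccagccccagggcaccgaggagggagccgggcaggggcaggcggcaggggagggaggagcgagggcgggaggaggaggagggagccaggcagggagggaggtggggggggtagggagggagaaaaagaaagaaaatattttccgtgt
Ppara, chr15:85735526-85735825, plus strand: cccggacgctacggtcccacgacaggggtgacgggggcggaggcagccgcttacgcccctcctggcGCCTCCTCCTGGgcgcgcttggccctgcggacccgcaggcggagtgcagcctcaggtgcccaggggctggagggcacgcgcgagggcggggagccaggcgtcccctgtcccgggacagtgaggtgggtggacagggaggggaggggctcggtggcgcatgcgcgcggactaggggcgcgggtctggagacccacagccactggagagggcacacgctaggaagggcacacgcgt
The half-site read as its reverse complement, TGACCT, in all the matches shown. Its first base stood 214 bases upstream of the transcript start in Nr1h4, 225 bases upstream in Rarg, and 91 and 45 bases upstream in Nr6a1. The window of Nr1i3 held neither set of letters. In Ppara the CTCF core letters also read as their reverse complement, 184 bases upstream, in a window that was 74.7% G or C. A match is a description of these letters, and binding was not measured.

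Levels between genes were compared in TPM. The 6 of the 32 receptors with the highest mean TPM were Nr1i3, Nr1h4, Rxra, Nr1h3, Ppara and Nr2f6. They held 83.8% of the summed TPM of the 32 genes, and Nr1i3 alone held 49.2%. Receptors left out of the set, such as Hnf4a and Nr1d1, are not in that sum. The sum over the 32 genes was 931 ± 77.6 TPM in cKO and 1091 ± 139 TPM in WT (mean ± SD, n = 4 each). Its ranges overlapped, at 820 to 999.7 TPM in cKO and 906 to 1223 TPM in WT. Nr1i3 alone averaged 382.8 ± 45.8 TPM in cKO and 612 ± 137 TPM in WT, a larger difference than that of the sum. A mean of at least 1 TPM was reached by 24 of the 32, and the other 8 were below it. The genes in the next places, Nr1i2, Nr1h2, Esrra and Rxrb, averaged 37.5, 31.0, 19.4 and 19.1 TPM over all 8 libraries. In their library values Nr1i3 overlapped with no other receptor of the 32. Nr1i2 overlapped with Nr1h2 and Esrra with Rxrb, while Nr1h2 and Esrra did not overlap.

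**Figure D2:**
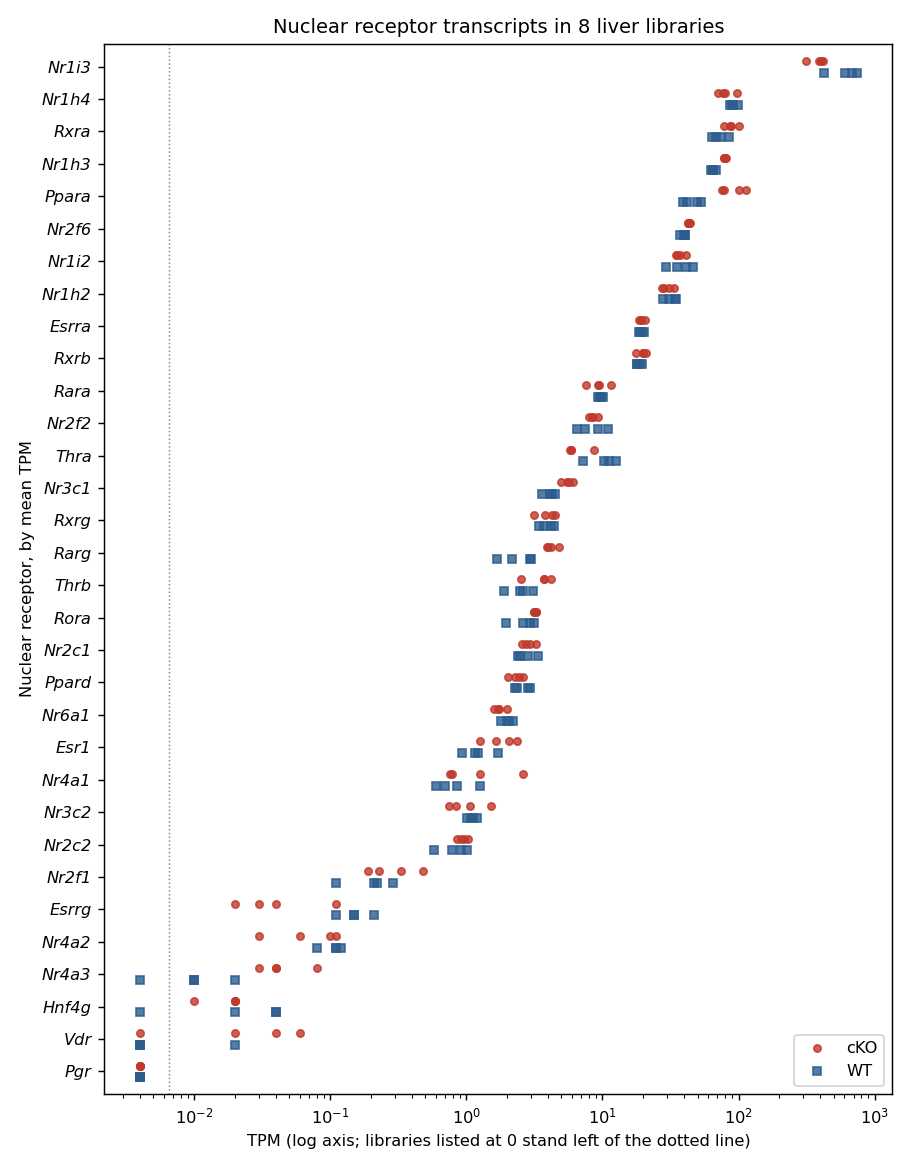
TPM of the 32 nuclear receptors is plotted on a log axis for each of 4 cKO libraries (red circles) and 4 WT libraries (blue squares), ordered by mean TPM, with values listed at 0 left of the dotted line. Nr1i3 lies at 315.6 to 416.3 TPM in cKO and 424.7 to 737.9 TPM in WT, above every other receptor of the 32 in each library.

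Among the xenobiotic sensors, Nr1i3 fell and Nr1i2 did not pass the threshold. Nr1i3 (ENSMUSG00000005677, mm10 chromosome 1, 171213934 to 171218845) encodes CAR, which switches on drug-metabolising enzymes after exposure to foreign chemicals. It had 739.7, 569.4, 689.8 and 694.2 CPM in cKO replicates 1 to 4, against 1421, 1555, 1262 and 877.1 CPM in WT replicates 1 to 4. Every cKO library lay below every WT library, and WT replicate 4 was the WT library nearest to the cKO libraries. The mean was 52.6% of the WT level by the ratio of the group means (673.3 ± 72.8 CPM in cKO and 1279 ± 294 CPM in WT, SD, n = 4 each), with a log2 change of -0.93 (SE 0.16, edgeR adjusted p = 0.00248). The annotated ends of Nr1i3 and Tomm40l, a mitochondrial import gene, share 1044 bases, and the kit was not stated to keep the strand, so reads there cannot be assigned with certainty. Tomm40l, named because of this overlap and after its values were seen, averaged 30.7 ± 5.52 CPM in cKO and 52.8 ± 11.5 CPM in WT (log2 change -0.78, edgeR adjusted p = 0.0163).

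Nr1i2 encodes PXR, the other broad sensor of drugs and steroids. It had 71.1 to 79.9 CPM in cKO and 67.0 to 103.9 CPM in WT, so the cKO libraries lay within the span of the WT libraries (log2 change -0.22, edgeR adjusted p = 0.175; without WT replicate 1, -0.32 and 0.0264). Vdr, the vitamin D receptor, had 3, 7, 12 and 1 counts in cKO, against 0, 0, 4 and 0 counts in WT, and was too low to test. Its level was 0.134 and 0.222 CPM in cKO replicates 2 and 3 and 0.0917 CPM in WT replicate 3, above the limit that a count of 0 allows. The other libraries were below that limit.

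All 3 bile acid and sterol sensors were tested, and 2 of them fell by less than 2-fold. Nr1h4 (ENSMUSG00000047638, mm10 chromosome 10, 89454234 to 89533645) encodes FXR, the bile acid receptor that restrains bile acid synthesis. It had 118.9, 111.7, 145.3 and 117.7 CPM in cKO replicates 1 to 4, against 173.1, 153.7, 161.4 and 148.5 CPM in WT replicates 1 to 4. The genotypes did not overlap, although cKO replicate 3 came within a few CPM of WT replicate 4 (log2 change -0.37, SE 0.09, edgeR adjusted p = 0.0107). In TPM they overlapped, with 81.0 ± 11.6 in cKO and 91.9 ± 5.71 in WT, and limma on log2(TPM + 1) gave -0.19 with an adjusted p of 0.165. With an offset for effective length, described below with Ppara, edgeR gave -0.36 and an adjusted p of 0.0141. With library size alone edgeR gave -0.26 and 0.0596.

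Nr1h2 (ENSMUSG00000060601, mm10 chromosome 7, 44549616 to 44553968) encodes LXRβ, an oxysterol receptor found in most tissues. It had 43.7, 37.0, 38.8 and 37.6 CPM in cKO replicates 1 to 4, against 48.9, 44.5, 48.9 and 42.2 CPM in WT replicates 1 to 4. Only cKO replicate 1 lay above the lowest WT library, and the log2 change was -0.23 (SE 0.08, edgeR adjusted p = 0.0389). The call of Nr1h2 was among the least stable, since leaving out any of cKO replicates 2, 3 and 4 or WT replicates 1, 2 and 3 gave adjusted p values of 0.0587 to 0.118. Nr1h3, which encodes LXRα, the form enriched in liver, had 110.2, 108.4, 102.9 and 104.7 CPM in cKO, against 99.4, 95.1, 101.1 and 103.4 CPM in WT. Its libraries overlapped in CPM (log2 change 0.10, edgeR adjusted p = 0.270). In TPM they did not, with 79.1 ± 1.11 in cKO and 65.0 ± 2.17 in WT, and limma on log2(TPM + 1) gave 0.28 with an adjusted p of 0.00414. The effective length of Nr1h3 hardly differed (log2 ratio -0.0045), and edgeR with an offset for it gave 0.10 with an adjusted p of 0.254. With library size alone edgeR gave 0.20 and 0.0287.

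The 3 RXRs, the shared partners of the receptors above, did not pass the threshold in either direction. For them 0 were called by edgeR, DESeq2 or limma-voom, and 0 had an unadjusted p under 0.05. Rxra had 359.2, 315.9, 335.7 and 392.5 CPM in cKO replicates 1 to 4, against 289.2, 331.1, 312.5 and 379.6 CPM in WT replicates 1 to 4. The ranges overlapped over most of their length (log2 change 0.10, edgeR adjusted p = 0.480). The less abundant forms Rxrb and Rxrg averaged 31.9 ± 2.47 and 4.77 ± 0.66 CPM in cKO, and 34.2 ± 1.19 and 5.47 ± 0.67 CPM in WT. Their log2 changes were -0.10 and -0.20, and that of Rxrb was 0.01 when libraries were scaled to their totals alone.

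Among the fatty acid sensors, Ppara gave different answers in counts and in TPM. Ppara (ENSMUSG00000022383, mm10 chromosome 15, 85734910 to 85806851) encodes PPARα, which drives fatty acid oxidation and ketone body synthesis in fasting. In CPM it had 36.6, 35.0, 39.6 and 41.6 in cKO replicates 1 to 4, against 27.8, 37.5, 30.6 and 36.5 in WT replicates 1 to 4. The groups overlapped, and the log2 change was 0.21 (SE 0.10, edgeR adjusted p = 0.134). In TPM the same libraries had 78.4, 75.7, 114.5 and 100.5 in cKO, against 52.6, 49.8, 39.4 and 41.7 in WT. Every cKO library was then above every WT library (92.3 ± 18.5 TPM in cKO and 45.9 ± 6.31 TPM in WT, mean ± SD, n = 4 each), and limma on log2(TPM + 1) gave 0.98 with an adjusted p of 0.00185.

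The effective length of a gene is the length that RSEM, the authors' quantifier, averaged over the transcripts to which it assigned the reads. For Ppara it was 541, 535, 422 and 501 bases in cKO replicates 1 to 4, against 552, 799, 799 and 920 bases in WT replicates 1 to 4. All cKO values were below all WT values, although cKO replicate 1 and WT replicate 1 nearly met (499.9 ± 55.1 bases in cKO and 767 ± 155 bases in WT, log2 ratio -0.62). Ppara was the 1 tested receptor whose effective length was at least 1.5-fold shorter in cKO, a fold chosen after the values were seen; 23 of all 15562 tested genes (0.148%) were shorter and 51 (0.328%) longer by that much. With an offset for effective length, edgeR gave a log2 change of 0.83 and an adjusted p of 0.00139, and with libraries scaled to their totals alone it gave 0.31 and 0.0297. The gene tables used here hold 1 effective length per gene and library, and which transcripts were involved was not analysed here. Ppard, which encodes the widely expressed PPARδ, averaged 5.51 ± 0.63 CPM in cKO and 6.83 ± 0.77 CPM in WT (log2 change -0.31, edgeR adjusted p = 0.0680). Leaving out cKO replicate 1 gave 0.0483.

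**Figure D3:**
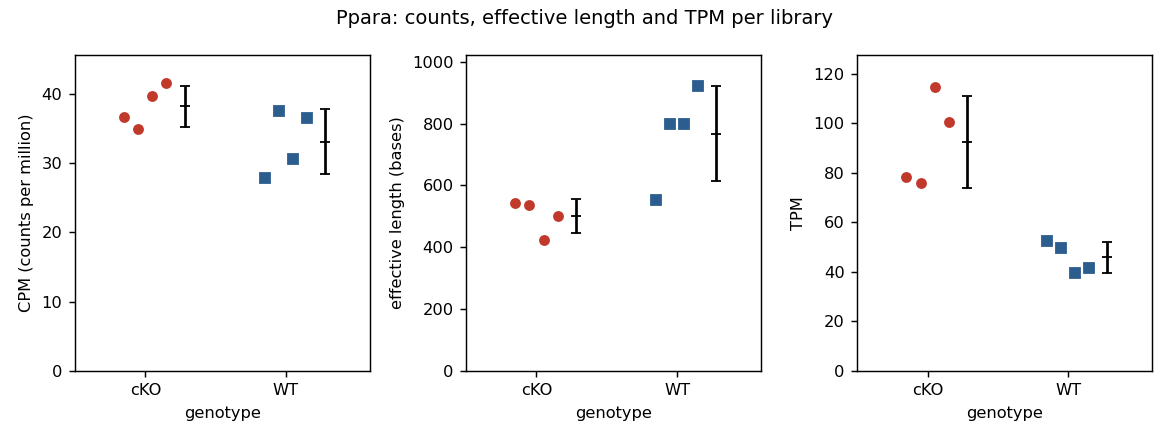
Ppara is plotted per library as CPM, as effective length in bases and as TPM, with red circles for 4 cKO libraries, blue squares for 4 WT libraries and black bars for the mean ± SD. The genotypes overlap in CPM (35.0 to 41.6 in cKO and 27.8 to 37.5 in WT) and do not overlap in TPM (75.7 to 114.5 in cKO and 39.4 to 52.6 in WT).

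The retinoic acid and thyroid hormone receptors moved in both directions, with Rarg higher and Thra lower. Rarg (ENSMUSG00000001288, mm10 chromosome 15, 102234938 to 102257522) encodes RARγ, a receptor for all-trans retinoic acid. It had 9.99, 8.13, 8.13 and 8.64 CPM in cKO replicates 1 to 4, against 6.96, 6.58, 5.34 and 3.60 CPM in WT replicates 1 to 4. Every cKO library lay above every WT library, in TPM as well (log2 change 0.63, SE 0.18, edgeR adjusted p = 0.0197). The call rested in part on single libraries, with an adjusted p of 0.0513 without cKO replicate 1 and 0.0575 without WT replicate 3. Stellate cell markers were also higher in cKO, as given above, and their part in the level of Rarg was not tested. Rara, which encodes RARα, the more abundant form, averaged 22.7 ± 3.97 CPM in cKO and 26.6 ± 1.26 CPM in WT (log2 change -0.22, edgeR adjusted p = 0.143; without cKO replicate 1, 0.0299).

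Thra (ENSMUSG00000058756, mm10 chromosome 11, 98740776 to 98769006) encodes thyroid hormone receptor α, which in liver is the minor form of the protein. It had 16.6, 11.1, 10.7 and 10.6 CPM in cKO replicates 1 to 4, against 27.0, 21.9, 24.3 and 15.6 CPM in WT replicates 1 to 4. The overlap came from cKO replicate 1, which exceeded WT replicate 4, and the log2 change was -0.86 (SE 0.20, edgeR adjusted p = 0.0127). Thra overlaps Nr1d1, the circadian repressor REV-ERBα on the opposite strand, by 1075 bases, and without a stated strand setting their reads cannot be told apart there. Nr1d1, named for this overlap and after its values were seen, had 91.7, 50.6, 46.4 and 39.1 CPM in cKO, against 146.7, 104.0, 133.2 and 80.5 CPM in WT (log2 change -1.03, edgeR adjusted p = 0.0488). The 8 libraries stood in the same order for Thra and for Nr1d1. Thrb, which encodes the main thyroid hormone receptor of hepatocytes, had 12.2 to 17.3 CPM in cKO and 9.40 to 13.4 CPM in WT. Its log2 change of 0.35 missed the threshold (SE 0.13, edgeR adjusted p = 0.0593), and 5 of 21 alternative settings, among them DESeq2 (0.0419) and the fit without cKO replicate 1 (0.0219), put it past the threshold.

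Of the steroid receptors, Nr3c1 rose slightly. Nr3c1 (ENSMUSG00000024431, mm10 chromosome 18, 39410545 to 39519421) encodes the glucocorticoid receptor. It had 25.6, 28.8, 30.4 and 28.6 CPM in cKO replicates 1 to 4, against 20.9, 24.2, 24.2 and 26.4 CPM in WT replicates 1 to 4. Only cKO replicate 1 lay below the highest WT library, and the log2 change was 0.25 (SE 0.08, edgeR adjusted p = 0.0414). Leaving out any of cKO replicates 2, 3 and 4 or WT replicates 1, 2 and 3 gave adjusted p values of 0.0706 to 0.110. Esr1, the estrogen receptor α gene, averaged 9.18 ± 2.19 CPM in cKO and 7.07 ± 1.87 CPM in WT (log2 change 0.38, edgeR adjusted p = 0.208; without WT replicate 4, 0.57 and 0.0411). Nr3c2, the mineralocorticoid receptor gene, averaged 4.80 ± 1.47 CPM in cKO and 5.80 ± 0.43 CPM in WT (log2 change -0.27, edgeR adjusted p = 0.282; without cKO replicate 4, -0.49 and 0.0273). Pgr, the progesterone receptor gene, had a total of 1 count in cKO, in replicate 3, and 0 counts in each WT library.

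Among the 10 receptors with constitutive activity or no settled ligand, 9 were tested and 2 fell, Esrrg and Nr6a1. Esrrg (ENSMUSG00000026610, mm10 chromosome 1, 187608510 to 188214885) encodes the estrogen-related receptor γ, an activator of oxidative metabolism. It had 8, 6, 5 and 11 counts in cKO replicates 1 to 4, against 35, 31, 46 and 22 counts in WT replicates 1 to 4. In CPM these were 0.153, 0.115, 0.0923 and 0.187 in cKO, against 0.714, 0.731, 1.05 and 0.515 in WT, so each cKO library lay well below each WT library. The log2 change was -2.43 (SE 0.33, edgeR adjusted p = 0.000425), and the gene passed the count filter through its WT libraries. In TPM the genotypes met at 0.11, the value of both cKO replicate 1 and WT replicate 4. In cKO replicate 1 the effective length of Esrrg was 1552 bases, against 4894 to 5189 bases in the other 7 libraries.

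Nr6a1 (ENSMUSG00000063972, mm10 chromosome 2, 38723369 to 38926461) encodes germ cell nuclear factor, a repressor best known from embryos and germ cells. It had 7.23, 8.00, 9.05 and 7.60 CPM in cKO replicates 1 to 4, against 10.6, 11.8, 11.5 and 8.64 CPM in WT replicates 1 to 4. The groups overlapped through cKO replicate 3 and WT replicate 4 (log2 change -0.42, SE 0.11, edgeR adjusted p = 0.0169). Without WT replicate 2 the adjusted p was 0.0536, and without WT replicate 3 it was 0.0515. The gene spans Nr6a1os and the microRNA genes Mir181a-2 and Mir181b-2, whose reads were not separated by a stated strand setting.

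Nr2f6, an orphan receptor related to the COUP-TFs, had the smallest log2 change of the 6 most abundant receptors. It had 63.5, 66.3, 65.9 and 64.5 CPM in cKO replicates 1 to 4, against 61.7, 66.4, 64.7 and 66.9 CPM in WT replicates 1 to 4, a span of a few CPM in both groups (log2 change 0.00, SE 0.06, edgeR adjusted p = 0.981). Esrra, which encodes the estrogen-related receptor α, averaged 31.0 ± 2.02 CPM in cKO and 34.7 ± 1.16 CPM in WT (log2 change -0.16, edgeR adjusted p = 0.0812; 0.01 by limma on log2(TPM + 1)). Rora, whose product activates clock and lipid genes, averaged 27.5 ± 0.96 CPM in cKO and 25.3 ± 4.55 CPM in WT. The COUP-TF genes Nr2f2 and Nr2f1 averaged 16.4 ± 0.34 and 0.562 ± 0.121 CPM in cKO, and 18.2 ± 3.89 and 0.445 ± 0.181 CPM in WT. The testicular receptor genes Nr2c1 and Nr2c2 averaged 8.02 ± 0.73 and 3.95 ± 0.47 CPM in cKO, and 8.34 ± 1.14 and 3.60 ± 0.61 CPM in WT. None of these 6 passed in edgeR, where 1 of them, Esrra, had an unadjusted p under 0.05, and none passed in DESeq2 or limma-voom. Hnf4g had 2, 1, 2 and 2 counts in cKO, against 4, 3, 2 and 0 counts in WT.

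The early response receptors of the NR4A group, which are induced within hours of a stimulus, were low and uneven. Nr4a1 had 2.51, 5.22, 1.42 and 1.46 CPM in cKO, against 1.33, 1.86, 2.82 and 1.52 CPM in WT, with a log2 change of 0.49 that was -0.05 without cKO replicate 2. Nr4a2 averaged 0.160 ± 0.057 CPM in cKO and 0.213 ± 0.051 CPM in WT. Nr4a3 had 5, 8, 9 and 7 counts in cKO, against 4, 1, 1 and 2 counts in WT, a set of values without overlap that was too low to test. Of the 2 tested, 0 were called by edgeR, DESeq2 or limma-voom, and 0 had an unadjusted p under 0.05.

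**Figure D4:**
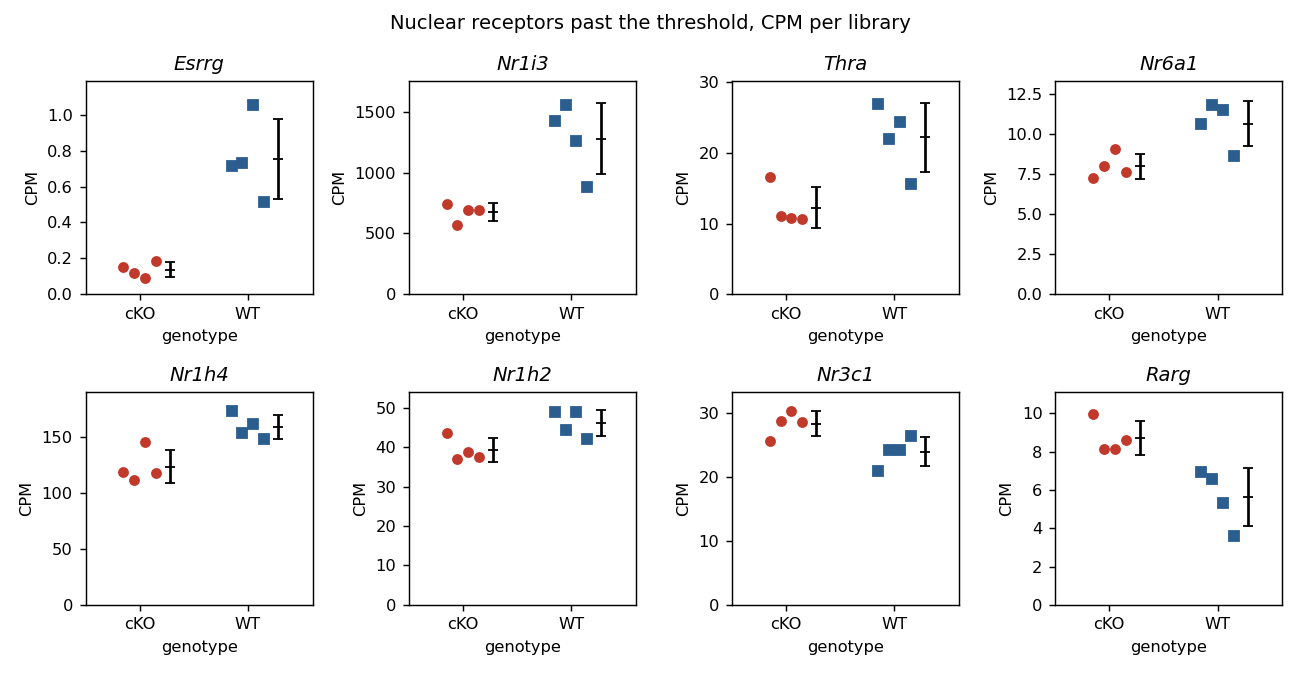
CPM of the 8 nuclear receptors with an edgeR adjusted p under 0.05 is plotted per library, with red circles for cKO, blue squares for WT and black bars for the mean ± SD (n = 4 each). Esrrg, Nr1i3, Nr1h4 and Rarg show no overlap, and in Thra cKO replicate 1 (16.6 CPM) stands above WT replicate 4 (15.6 CPM).

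The balance between paralogs was compared within libraries as the ratio of their TPM, in 9 pairs, with exact two-sided permutation tests whose smallest possible p is 0.0286. The ratio of Ppard to Ppara averaged 0.0262 ± 0.0063 in cKO and 0.0579 ± 0.0124 in WT and did not overlap (log2 difference -1.16, exact permutation p = 0.0286, adjusted over the 9 pairs 0.129). From expected counts in place of TPM the difference was -0.52 (exact permutation p = 0.0571). The ratio of Rarg to Rara averaged 0.454 ± 0.067 in cKO and 0.253 ± 0.071 in WT and did not overlap either (log2 difference 0.88, exact permutation p = 0.0286, adjusted 0.129). Nr1h2 relative to Nr1h3 averaged 0.379 ± 0.034 in cKO and 0.493 ± 0.056 in WT, with overlap. Thra relative to Thrb averaged 1.99 ± 0.97 in cKO and 4.32 ± 1.71 in WT, also with overlap. Reads in the bases that Thra shares with Nr1d1 were not separated in that ratio. The ratio of Nr1i3 to Nr1i2 was 8.92 to 11.7 in cKO and 9.24 to 23.2 in WT. None of the 9 ratios passed after adjustment, and 2 had an unadjusted p under 0.05.

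The machinery around the receptors changed in few members. Of 20 coregulators 2 rose and 1 fell (median log2 change -0.00), beside 15.2% higher and 14.9% lower among all genes. Hdac3, the deacetylase of the NCoR and SMRT corepressor complexes, averaged 39.6 ± 1.15 CPM in cKO and 51.1 ± 2.54 CPM in WT (log2 change -0.37, edgeR adjusted p = 0.00154), a call that ended with limma on log2(TPM + 1) (adjusted p 0.132). Ncoa4 and Tbl1x, an autophagy receptor for ferritin first described as a coactivator and a subunit of those complexes, rose by log2 0.48 and 0.22. Their calls ended when any of cKO replicates 3 and 4 and WT replicates 1 and 2 was left out; cKO replicate 2 and WT replicate 3 also ended that of Ncoa4 and WT replicate 4 that of Tbl1x (adjusted p 0.0523 to 0.0845 for Ncoa4 and 0.0576 to 0.106 for Tbl1x). The acetyltransferase gene Crebbp stood at a log2 change of -0.18 with an edgeR adjusted p of 0.0962. Of 10 chaperones that hold steroid receptors ready for ligand, 2 rose and 0 fell in edgeR (median log2 change 0.06); 1 was lower at an unadjusted p under 0.05 and 0 in DESeq2 and limma-voom. Hsp90ab1 averaged 906.9 ± 67.3 CPM in cKO and 687 ± 112 CPM in WT (log2 change 0.40, edgeR adjusted p = 0.0194), with adjusted p values of 0.0560 without cKO replicate 4 and 0.0568 without WT replicate 2. Ptges3, the co-chaperone p23, rose by log2 0.34 with an edgeR adjusted p of 0.0481, and lost its call without any library other than WT replicate 4 (0.0782 to 0.128). Fkbp4 and Hsp90aa1 had log2 changes of -0.19 and 0.44 and did not pass (edgeR adjusted p = 0.104 and 0.142), with 0.04 for Fkbp4 by limma on log2(TPM + 1) and an adjusted p of 0.00260 for Hsp90aa1 without WT replicate 4.

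Targets of CAR and PXR held more rises than falls, and Nr1i3 itself was lower. Of 22 tested, 7 rose and 1 fell (36.4% called, against 30.1% of all genes, of which 15.2% were higher and 14.9% lower; median log2 change 0.13). Cyp2a4, a cytochrome P450 of steroid hydroxylation, averaged 27.6 ± 3.82 CPM in cKO and 1.78 ± 0.76 CPM in WT (log2 change 3.94, edgeR adjusted p = 3.5e-05). Gsta1, a glutathione transferase, averaged 6.52 ± 1.63 CPM in cKO and 0.808 ± 0.186 CPM in WT (log2 change 3.01, edgeR adjusted p = 8.1e-06). The exporter gene Abcc4 and Cyp2c55 rose by log2 1.30 and 0.96. Cyp2b10, the usual readout of CAR, named after its values were seen, had 18.8, 17.2, 41.0 and 37.0 CPM in cKO replicates 1 to 4, against 4.94, 1.86, 5.25 and 2.69 CPM in WT replicates 1 to 4 (log2 change 2.95, SE 0.47, edgeR adjusted p = 0.00526). Every cKO library of Cyp2b10 was above every WT library, whereas every cKO library of Nr1i3 was below every WT library. Within cKO, replicate 2 was the lowest library for both genes. The other 14 of the 22 targets did not pass. Among them Cyp3a11, Por and Alas1 had log2 changes of 0.18, 0.04 and 0.09 (edgeR adjusted p = 0.692, 0.855 and 0.859). Cyp2b9 had 2.75 (edgeR adjusted p = 0.0608). The activity of CAR was not tested. Cyp2c29 was the member that fell, with 384 ± 38.4 CPM in cKO and 496.9 ± 27.4 CPM in WT (log2 change -0.37), and its call ended with limma on log2(TPM + 1) (adjusted p 0.111). Cyp2a4, Cyp2b10, Cyp2c29, Cyp2c55 and Gsta1 have near-identical relatives between which reads may be divided, so their single values are uncertain.

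Targets of PPARα and PPARδ held more rises than falls. Of 26 tested, 11 rose and 2 fell, beside 15.2% higher and 14.9% lower among all genes (median log2 change 0.25). Ehhadh, a peroxisomal β-oxidation enzyme, averaged 2327 ± 356 CPM in cKO and 1050 ± 216 CPM in WT (log2 change 1.15, edgeR adjusted p = 0.000532). Plin2, which coats lipid droplets, averaged 777 ± 117 CPM in cKO and 457 ± 33.1 CPM in WT (log2 change 0.77, edgeR adjusted p = 0.000459). The mitochondrial carrier gene Ucp2 and the fatty acid ω-hydroxylase gene Cyp4a10 rose by log2 0.67 and 0.59. Fabp1, a fatty acid carrier, fell by 0.52 on the log2 scale, a call that limma on log2(TPM + 1) did not give (adjusted p 0.0831). The number that fell was 1 without any of cKO replicates 1, 2 and 4 and WT replicates 1, 2 and 4.

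Targets of the sterol and bile acid sensors passed about as often as genes in general, with 31.2% of LXR targets and 30.8% of FXR targets called, against 30.1% of all genes. Of 16 LXR targets 2 rose and 3 fell (median log2 change -0.02), with the phosphodiesterase gene Smpdl3a and Tmem135 at log2 0.63 and 0.51, and Fasn, the fatty acid synthase, and Srebf1, which drives lipogenesis, at -0.49 and -0.89. Of 13 tested FXR targets 1 rose and 3 fell (median log2 change -0.19). The list included Cyp7a1 and Cyp8b1, of the bile acid synthesis that FXR restrains, so its counts and median have no single direction. Fgf1, a growth factor, averaged 69.0 ± 4.17 CPM in cKO and 109.8 ± 11.5 CPM in WT (log2 change -0.67, edgeR adjusted p = 0.000315). Fetub, a secreted protease inhibitor that also stood on the hepatocyte marker list, fell by 0.58 on the log2 scale with an edgeR adjusted p of 0.000601. Osgin1 fell by 1.33 on the log2 scale, and lost its call without cKO replicate 2 or 3 or WT replicate 3 (adjusted p 0.0514 to 0.0614). The phospholipid exporter gene Abcb4 rose by log2 0.28, and lost its call without any of cKO replicates 1, 3 and 4 and WT replicates 2 and 3 (adjusted p 0.0515 to 0.0786).

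Thyroid hormone targets moved both ways. Of 14, 5 rose and 2 fell, beside 15.2% higher and 14.9% lower among all genes (median log2 change 0.12). Gpd2, the mitochondrial glycerophosphate dehydrogenase, averaged 23.7 ± 4.18 CPM in cKO and 11.4 ± 1.504 CPM in WT (log2 change 1.06, edgeR adjusted p = 0.000327), and the corepressor gene Hr had a log2 change of 1.38. Txnrd3 and Ndrg2 fell by 0.57 and 0.33 on the log2 scale, and limma on log2(TPM + 1) did not call Ndrg2 (adjusted p 0.181). The number that rose ranged down to 2 among the fits without cKO replicate 4 or WT replicate 3. Of 19 glucocorticoid receptor targets 1 was called (5.26%, against 30.1% of all genes) and rose, the kinase gene Sgk1 (17.2 ± 2.86 CPM in cKO and 11.0 ± 1.89 CPM in WT, log2 change 0.65, edgeR adjusted p = 0.00607). None fell in edgeR, where 1 was lower at an unadjusted p under 0.05, and DESeq2 and limma-voom each called 1 lower, while 4 rose without WT replicate 4. Tdo2, Zbtb16 and Ddit4 had log2 changes of 0.26, -1.28 and 1.24 (edgeR adjusted p = 0.0878, 0.114 and 0.114).

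Of 9 tested retinoic acid targets, 4 rose and 2 fell, beside 15.2% higher and 14.9% lower among all genes (median log2 change 0.31). Cyp26b1, which degrades retinoic acid, averaged 7.18 ± 1.64 CPM in cKO and 2.63 ± 0.86 CPM in WT (log2 change 1.45, edgeR adjusted p = 0.00267). Cyp26a1, of the same function, and Rarb, the third RAR gene and itself a target, had log2 changes of 1.15 and 1.21. Rarres1 fell by 0.62 on the log2 scale, and lost its call without any of cKO replicates 1, 3 and 4 and WT replicate 1 (adjusted p 0.0675 to 0.0813). The number that fell was 0 to 2 over the fits that left out 1 library, with a value other than 2 for each library left out except WT replicate 4. Markers of stellate cells, the retinoid-storing cells of the liver, were also higher in cKO, as given above, and their part in these rises was not tested.

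Of 12 ROR targets 1 rose and 5 fell, beside 15.2% higher and 14.9% lower among all genes (median log2 change -0.19), and without cKO replicate 2 the number that fell was 3. Elovl3, a fatty acid elongase, averaged 23.5 ± 12.8 CPM in cKO and 100.5 ± 26.7 CPM in WT (log2 change -2.10, edgeR adjusted p = 0.0109). The vasopressin receptor gene Avpr1a and the clock repressor gene Nfil3 had log2 changes of -1.18 and -1.04. Cidec, a lipid droplet protein, averaged 36.3 ± 11.9 CPM in cKO and 8.82 ± 2.83 CPM in WT (log2 change 2.04, edgeR adjusted p = 0.00324). Of 20 tested genes listed for making, degrading or carrying the ligands, 3 rose and 2 fell (25% called, against 30.1% of all genes). Their median log2 change was 0.06. Cyp26a1 and Cyp26b1, among the 3 that rose, were also counted among the retinoic acid targets above. The list also held Thrsp, which was counted among the thyroid hormone targets. Dhrs9, a retinol dehydrogenase, had a log2 change of 1.84 at a level of 0.932 ± 0.334 CPM in cKO and 0.259 ± 0.022 CPM in WT. Ttr, a plasma carrier of thyroid hormone and a hepatocyte marker, fell by 0.68 on the log2 scale (edgeR adjusted p = 0.00224). The number of these 20 that fell ranged over 1 to 3 in the fits without cKO replicate 2, cKO replicate 3 or WT replicate 2.

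**Figure D5:**
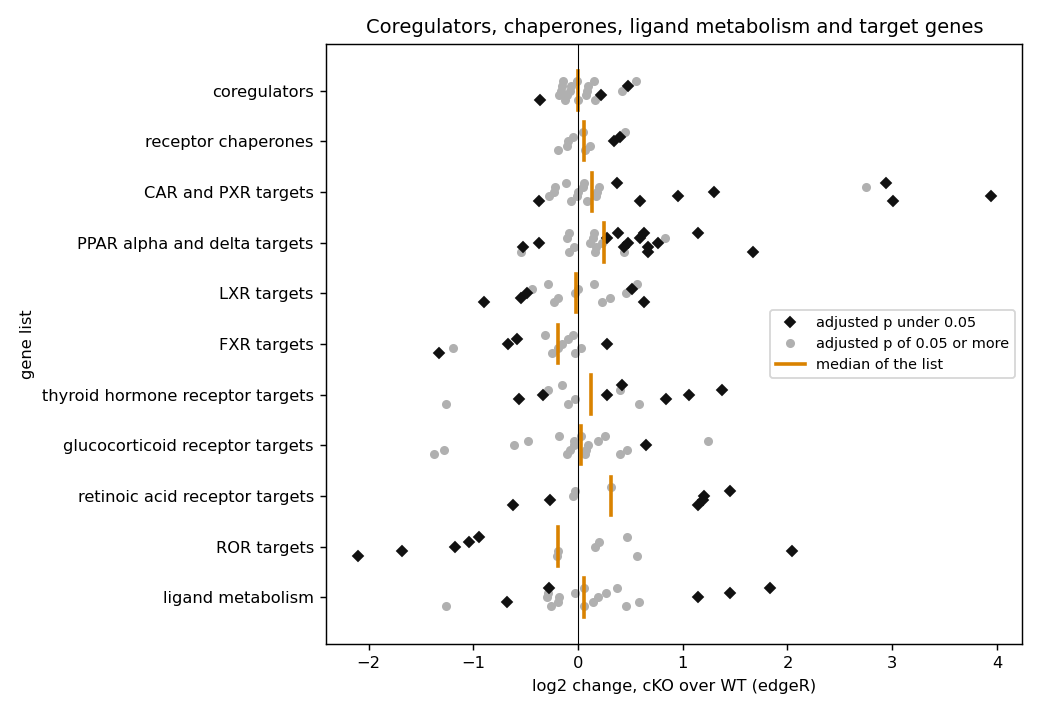
Log2 changes, cKO over WT, of the tested genes of 11 lists around the nuclear receptors are plotted, with black diamonds for an edgeR adjusted p under 0.05, grey circles for the rest and an orange bar at each list's median. The medians lie between -0.19 (FXR targets and ROR targets) and 0.31 (retinoic acid targets), and Cyp2a4 stands farthest to the right at 3.94.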

How the data were processed

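Liver RNA of 8 samples was sequenced. Libraries were made with a TruSeq RNA kit, per the labels' protocols, and reads were placed on mm10 with STAR 2.5.1 and quantified by RSEM, per the submitters' processing notes. For RSEM's version, the annotation and the strand setting the entry is: not given in the sources used here. Expected counts deposited by the authors are estimated counts that divide shared reads between genes, and the TPM they deposited are scaled for length and depth. Effective lengths in bases are also given, per the file headers.

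Expected counts were rounded, and genes were kept by edgeR's filterByExpr (minimum count 10, minimum total 15), leaving 15562 of 52636. Libraries were scaled with TMM factors and compared with edgeR 4.0.16 (R 4.3.3), using a robust glmQLFit and glmQLFTest and Benjamini-Hochberg adjustment over all tested genes at 0.05. CPM values are scaled to totals times TMM factors, and the limit for a count of 0 to totals alone. Paralog ratios were compared over 70 assignments. Libraries of 1 genotype differed by more than sampling noise in every pair (lowest ratio of chi-square to degrees of freedom 26.1). The test was tried on simulated data. The members and lists were chosen with earlier results of these data known, so the lists support nothing independently.

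Values in every library were given for members with adjusted p under 0.05 and for the 6 with the highest mean TPM. From each list the 4 genes of smallest p were named, with the opposite gene of smallest p if it passed; 1 gene that this rule names is not reported here. Cyp2b10, Cyp3a11, Por, Alas1, Cyp2b9, Nr1d1 and Tomm40l, and low receptors given by library, were named with their values already seen. Positions and promoters came from RefSeq's tables for GRCm38.p6, and the reference genome at hand, of another build, was not used. The alternatives changed the scaling (upper quartile or DESeq2-type factors, or library size alone), the filter (none, or 1 CPM in 4 libraries), the fit (not robust, with a replicate block, or with an offset for effective length), the tool (DESeq2 1.42.0, or limma 3.58.1 as voom or on TPM with 1 or 0.1 added before log2), the threshold (0.01) and the libraries (each left out in turn). List counts under these settings were an addition made with the data known. Plots used matplotlib 3.10.9 (Python 3.11.15).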

Additional observations from a re-analysis of the deposited data

Results flagged for a closer look

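Each receptor was checked in each genotype for a library whose gap to the nearest other library took up most of the range of the 4 (a share above 0.829). Of 64 such groups 5 met this, where chance alone gives about 1 in 20. Rxrb had 28.2 CPM in cKO replicate 3, below the 33.0 to 33.3 CPM of the other cKO libraries. Thra had 16.6 CPM in cKO replicate 1, above the 10.6 to 11.1 CPM of the other cKO libraries. Nr2c2 had 3.25 CPM in cKO replicate 1, below the 4.08 to 4.24 CPM of the other cKO libraries. Vdr had 0.0917 CPM in WT replicate 3 and 0 in the other WT libraries, and Pgr had 0.0185 CPM in cKO replicate 3 and 0 in the other cKO libraries, both at 4 counts or fewer.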

How the results depend on the processing

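Of the 8 receptors past the threshold, Nr1i3 and Esrrg kept their calls under every alternative run (Esrrg was not in the filter of 1 CPM). Their log2 changes were -1.07 to -0.65 and -2.63 to -0.14, the last on the log2(TPM + 1) scale. Esrrg had only 5 to 11 counts per cKO library and passed the count filter through its WT libraries. Its TPM met at 0.11 between the genotypes. Over 21 alternatives, 517 combinations of a tested receptor and a setting kept direction and side of the threshold, 35 lost a call, 18 gained one and 15 changed sign. With library size alone 3603 genes were higher and 1318 lower, and 5 receptors higher and 3 lower. Limma on log2(TPM + 1) gave 3848 and 875 genes and 4 and 3 receptors, log2(TPM + 0.1) gave 3847 and 878 genes and 4 and 3 receptors, and an adjusted p under 0.01 gave 1165 and 1050 genes and 0 and 2 receptors. The median log2 change of all genes was -0.01 in the comparison as reported, 0.10 with library size alone, and 0.10 and 0.15 in the 2 TPM fits, and the share of calls that were higher was 50.5%, 73.2%, 81.5% and 81.4%. Leaving out each library gave 0 to 3 receptors higher and 4 to 8 lower. Ctcf had -0.15 (limma adjusted p 0.161) and -0.18 (0.154) in the TPM fits, and -0.46 to -0.39 over the libraries left out.

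Library size alone ended the calls of Nr1h4 (0.0596), Nr1h2 (0.253) and Nr6a1 (0.0622), and the TPM fits ended the same 3. No filter ended that of Thra (0.0510), and Nr1h2 lost its call under 13 alternatives. Signs changed for receptors and a chaperone that were not called: with library size alone Rxrb had 0.0072 and Nr2c1 0.050, and with the length offset Nr2f6 had -0.055. With log2(TPM + 1) Esrra, Rxrb, Nr2f2, Nr2c1 and Fkbp4 had 0.0073, 0.074, 0.013, 0.046 and 0.043, and with log2(TPM + 0.1) they had 0.0076, 0.077, 0.017, 0.062 and 0.043. Leaving out 1 library gave Nr4a1 -0.051 to 0.75, Nr2f6 -0.022 to 0.017, Nr2c1 -0.12 to 0.027, and the log2 ratio of Nr2c1 to Nr2c2 -0.28 to 0.11. The cause was not tested. With 3 against 4 libraries no ratio can go below a p of 0.0571. Lists of few calls moved with single libraries: over the libraries left out, 0 to 2 coregulators, 0 to 3 chaperones and 0 to 2 FXR targets rose, and 1 to 2 CAR and PXR targets fell.

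The labels do not state that replicate numbers pair the samples. Same-numbered deviations had weak positive correlations of 0.0417 to 0.0567. The cKO replicates 1, 3 and 4 matched the WT library of their own number best, and cKO replicate 2 matched WT replicate 4. Whether libraries of the same number share a batch or a pairing was not tested. With the replicate block 2525 genes were higher and 2419 lower, and 3 receptors higher and 7 lower. The block put Thrb (0.00500) and Ppard (0.0396) past the threshold and ended the call of Elovl3 (0.0567). Depth limits Nr4a2, Nr4a3, Hnf4g, Vdr and Pgr, whose counts per library were 12 or fewer. It also limits Esrrg in cKO, where counts per library were 11 or fewer.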
